A study of Rattus norvegicus with 8 samples.

Results

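The genes that encode the subunits of neuronal intermediate filaments, Nefl, Nefm, Nefh, Ina and Prph, were read in rat retinas after a crush of the optic nerve or a sham operation. They were chosen by gene name among the spots that are not controls, with every probe of each name taken, and they are 5 of 26334 gene names on the array. All 5 were among the 16307 genes that passed the filter on spot brightness. The rule that took them uses no measured value, but they were chosen with earlier results of these data known. The study compared retinas of female Lister Hooded rats aged 8 weeks at surgery. In 4 rats (ONC) the right optic nerve was crushed inside the orbit with forceps for 10 s, 3 mm from the optic disc, and in 4 rats (CTR) the same surgery was done without closing the forceps on the nerve. Retinas were taken 2 weeks later, and the RNA of each was labelled with Cy3 or Cy5 and hybridised onto 4 arrays, each with a retina in either channel.

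Neurofilaments are the intermediate filaments of axons, built mainly from a light, a medium and a heavy chain, and they help to set the calibre of large myelinated axons. Alpha-internexin and peripherin, made from Ina and Prph, are related subunits that assemble with these chains in central and in peripheral neurons. In the retina, retinal ganglion cells (RGCs) are known for high neurofilament content, and their axons form the optic nerve.

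By the labels, an array carried a CTR retina in Cy5 beside the ONC retina with that number in Cy3. The effects of condition and dye cannot be told apart under these labels. In the study's methods, by contrast, the pair on an array comes from a single group. Nefl, Nefm and Nefh were high in the channels labelled ONC1, ONC2, ONC3 and CTR2 and low in the channels labelled CTR1, CTR3, CTR4 and ONC4, which does not follow the labels. Prph and Ina had CTR2 among the high and ONC4 among the low channels too, with CTR4 between for Prph and CTR3 and CTR4 nearer the high channels for Ina. How many of all genes show the split of the 3 chains was not counted. Of 12 measured RGC markers, 7 showed it (Sncg, Pou4f2, Rbpms, Slc17a6, Nell2, Thy1 and Opn4). In the other 5, Isl1 and Tubb3 followed the labels, Stmn2 and Chrna6 came close to the split, and Gap43 did neither. Every direction below is therefore one between labels. CTR2 and ONC4, the channels that stand apart from the others of their label, are each left out in turn beside the members' differences. The median foreground over the median background was 626.0 over 56.5 in CTR2 and 218.1 over 26.0 in ONC4. In the other channels it ran from 446.6 over 55.0 in CTR3 to 468.2 over 56.0 in CTR1 among the CTR channels, and from 331.9 over 28.0 in ONC3 to 494.7 over 29.5 in ONC2 among the ONC channels. The share of spots well above background was lowest in ONC4, at 66.8%, and highest in CTR1, at 79.4%. No spot was saturated. The number of arrays limits the precision of every value.

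Each member has 1 probe, a stretch of 60 bases. Nefm was printed at 10 spots, of which 9 were kept, and each of the others at 1 spot. The 14 spots gave 112 values over the 8 channels, and 112 of them were well above background. The lowest ratio of foreground to background among the kept spots was 7.18 for Nefl, 14.1 for Nefm, 4.68 for Nefh, 53.7 for Ina and 10.9 for Prph. The probes of 3 members are shown because they are what was measured for the light chain, the heavy chain and peripherin, and each is read 5′ to 3′ from the array files. On the build that the files use, rn4, the Nefl probe lies at chr15:47638898-47638957 on the plus strand, the Nefh probe at chr14:85595648-85595707 on the minus strand and the Prph probe at chr7:137839568-137839627 on the plus strand. The capitals in the Prph probe mark the 3 bases at its end, a stop codon.
Nefl: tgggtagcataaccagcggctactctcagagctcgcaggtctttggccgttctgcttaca
Nefh: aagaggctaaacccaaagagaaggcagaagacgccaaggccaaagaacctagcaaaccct
Prph: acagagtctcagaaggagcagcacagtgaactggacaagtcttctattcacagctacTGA
The Nefm probe lies at chr15:47698645-47698704 on the minus strand and the Ina probe at chr1:252340311-252340370 on the plus strand. The Nefl and Nefm probes are 59687 bases apart. The longest run of bases that any pair of the 5 probes shares is 7 on the same strand, and 9 when one of the pair is read on the other strand, for Nefl and Nefh. The probes thus share no long stretch with each other. They were not compared with the rest of the other members' RNA.

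All levels below are log2 values, background-subtracted and normalised, with 0 at the median spot of a channel. A probe's level also depends on its sequence, so levels are compared between channels and not between genes. Retinal RNA is a mixture, and fewer cells of a type and less RNA per cell cannot be told apart.

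Nefl encodes the light chain, the subunit on which the other chains assemble. Its level was -1.75 in CTR1, high in CTR2 at 0.84, -1.32 in CTR3 and -1.25 in CTR4. It was 0.84 in ONC1, 0.79 in ONC2, 0.90 in ONC3 and, well below these, -1.50 in ONC4. The channel labelled CTR2 thus stood among the 3 high ONC channels and ONC4 among the 3 low CTR channels, so the groups overlapped. From low to high the channels ran CTR1, ONC4, CTR3, CTR4, ONC2, CTR2, ONC1 and ONC3. The mean ± SD was -0.87 ± 1.16 for CTR and 0.26 ± 1.17 for ONC (n = 4 each). The log2 fold change of ONC against CTR was 1.13 (SE 0.68, 95% confidence interval -0.40 to 2.66, limma adjusted p = 0.416). This sign opposes the study, which reported Nefl, Nefm, Nefh, Ina and Prph as lower after crush. The fold change was 1.70 without CTR2 and 1.72 without ONC4, but 0.84 without CTR1, none with an adjusted p under the threshold of 0.05.

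Nefm encodes the medium chain, whose long tail projects from the filament. Its level, the mean of 9 spots, was -0.21 in CTR1, far higher in CTR2 at 2.84, 0.12 in CTR3 and -0.13 in CTR4. It was 2.90 in ONC1, 2.99 in ONC2 and 2.97 in ONC3, but -0.35 in ONC4. The lowest channel of all was labelled ONC, and the high CTR channel lay just under the 3 high ONC channels. The groups overlapped, and the distance from the lowest to the highest channel was 10.1-fold. The log2 fold change was 1.47 (SE 0.90, interval -0.57 to 3.51, limma adjusted p = 0.427). It was 2.20 without CTR2 and 2.30 without ONC4, but 1.18 without CTR1.

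Nefh encodes the heavy chain, which joins the filament later in development and carries a long tail with many sites for phosphate. Its level was -2.65 in CTR1, -2.24 in CTR3 and -2.13 in CTR4, but 0.31 in CTR2. It was 0.75 in ONC1, 0.21 in ONC2 and 0.74 in ONC3, but -2.54 in ONC4. The same split of channels appeared as for Nefl and Nefm, and from low to high they ran CTR1, ONC4, CTR3, CTR4, ONC2, CTR2, ONC3 and ONC1. The mean ± SD was -1.68 ± 1.34 for CTR and -0.21 ± 1.58 for ONC (n = 4 each). The log2 fold change was 1.46 (SE 0.85, interval -0.45 to 3.38, limma adjusted p = 0.398). It was 2.13 without CTR2 and 2.24 without ONC4, but 1.14 without CTR1. The distance from the lowest to the highest channel was 10.6-fold, larger than that of the other members.

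Ina encodes alpha-internexin, a subunit that appears early in developing central neurons. Its level was lowest at 1.40 in CTR1, then 2.52 in CTR2, 2.01 in CTR3 and 2.18 in CTR4. It was 2.38 in ONC1, 2.42 in ONC2 and 2.55 in ONC3, but 1.47 in ONC4. CTR1 and ONC4 were low and the other 6 channels lay close together, so the groups overlapped and CTR3 and CTR4 stood nearer to the high channels than they did for the 3 chains. The mean ± SD was 2.03 ± 0.47 for CTR and 2.20 ± 0.50 for ONC (n = 4 each). The log2 fold change was 0.18 (SE 0.29, interval -0.47 to 0.83, limma adjusted p = 0.799). Its direction rested on CTR1, without which it was -0.03, while it was 0.34 without CTR2 and 0.42 without ONC4. From lowest to highest channel Ina spanned 2.23-fold.

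Prph encodes peripherin, a subunit best known from peripheral nerves and also found in some central neurons whose axons leave the brain or retina. Its level was -0.92 in CTR1, -0.23 in CTR3 and 0.37 in CTR4, but 1.72 in CTR2. It was 1.64 in ONC1, 1.71 in ONC2 and 1.68 in ONC3, but -0.92 in ONC4. CTR4 lay between the low and the high channels, more so than for the 3 chains, and the highest channel of all was labelled CTR. The mean ± SD was 0.24 ± 1.12 for CTR and 1.03 ± 1.30 for ONC (n = 4 each). The log2 fold change was 0.79 (SE 0.70, interval -0.79 to 2.38, limma adjusted p = 0.598), 1.29 without CTR2 and 1.44 without ONC4, but 0.41 without CTR1. From lowest to highest channel Prph spanned 6.24-fold, close to the 6.26-fold of Nefl.

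**Figure D1:**
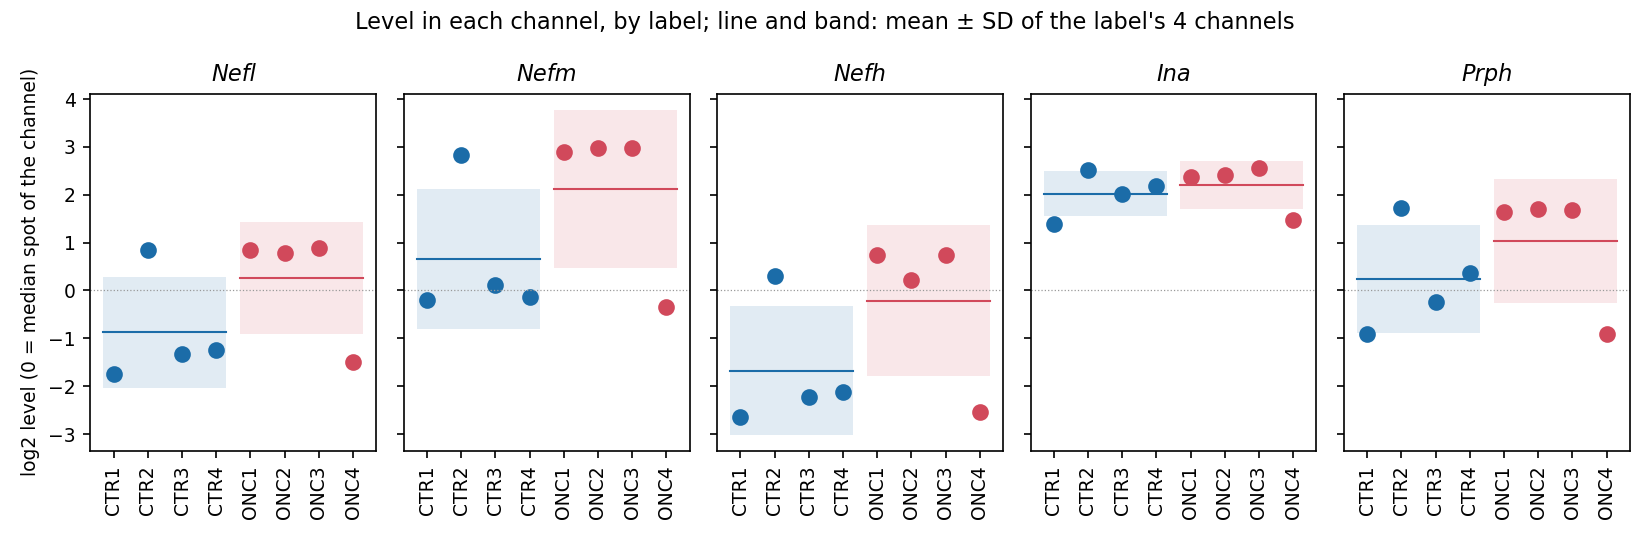
Log2 level of each of the 5 genes (vertical axis, 0 at the median spot of a channel) in the 8 channels by label, CTR in blue and ONC in red. Lines and bands are the mean ± SD of the 4 channels of a label; CTR2 lies with ONC1, ONC2 and ONC3, and ONC4 with CTR1, in every panel.

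Set against all genes, 0 of 5 members passed at an adjusted p under 0.05, where limma called 81 genes (0.497%), 38 higher and 43 lower in the channels labelled ONC. With the array as a block, 0 of 5 passed, with adjusted p from 0.164 for Nefm to 0.682 for Ina, while 1254 genes were called (7.69%), 502 higher and 752 lower. Before adjustment, 0 of 5 members and 3025 genes (18.6%) had a p under 0.05. The methods' criterion, a threshold on fold computed for each gene together with the methods' t-test, was met by 0 of 5 members and by 510 genes (3.13%). In 0 of 5 members did all ONC channels lie on one side of all CTR channels, against 12.7% of all genes. All 5 members had a log2 fold change above 0, against 47.4% of all genes, and Ina's was below 0 without CTR1. The median over the members was 1.13, beside -0.01 over all genes.

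The size of the difference and its test thus parted for these genes. By log2 fold change, Nefm was in place 5 from the highest of 16307 genes, Nefh in place 6, Nefl in place 15, Prph in place 52 and Ina in place 2914. These places rest on the sign between labels, and places by size in either direction were not counted. By the SD over the 8 channels, which has no sign, the places were 12, 16, 43, 45 and 938 in the same order. The standard errors of the 3 chains and Prph ran from 0.68 to 0.90, against a median of 0.12 over all genes. The count of 81 called genes itself rested on single channels and on the scaling. With any of the 4 CTR channels left out, or ONC1, ONC3 or ONC4, limma called 0 genes, and with ONC2 left out 38, while 2085 to 3252 genes had an unadjusted p under 0.05. With median scaling in place of loess, 3194 genes were called, 2267 higher and 927 lower. With the software's processed signals, 21 genes were called, 12 higher and 9 lower.

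**Figure D2:**
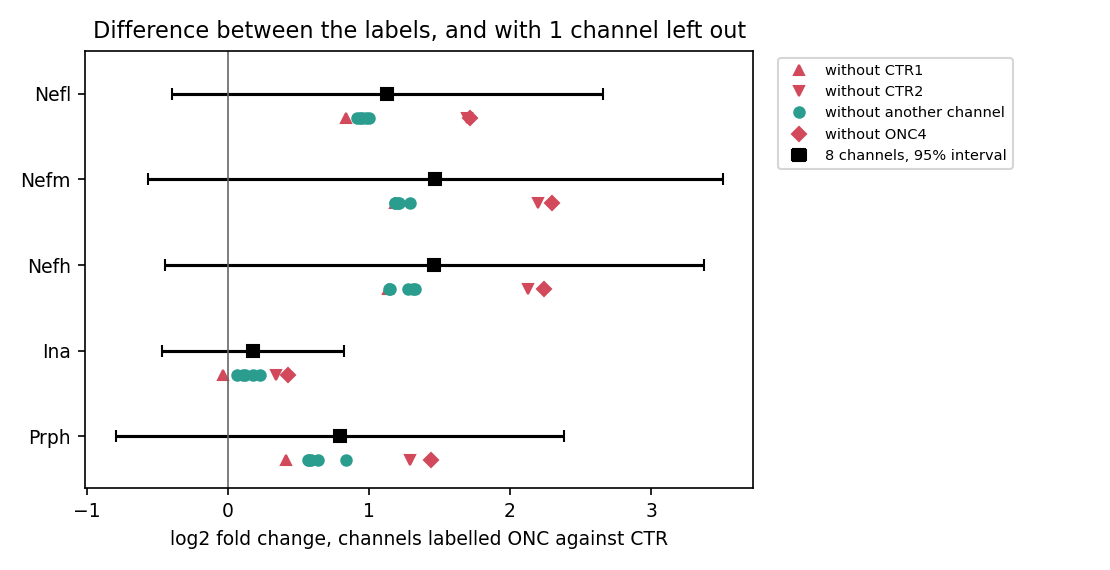
Log2 fold change of the channels labelled ONC against those labelled CTR (horizontal axis) for the 5 genes, as squares with 95% confidence intervals from limma over 8 channels. Smaller marks give the value with 1 channel left out; leaving out CTR2 or ONC4 moved Nefl, Nefm, Nefh and Prph to higher values, and leaving out CTR1 took Ina to -0.03.

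Both channels of an array share its spots, so the ratio within an array leaves out differences between spots. Over all genes, the log2 ratios of Cy3 over Cy5 of each pair of arrays correlated with Pearson's r between 0.12 (arrays 1 and 2) and 0.63 (arrays 1 and 3), across genes that are not independent replicates, and no pair was below 0. For Nefl the ratio was 2.59 on array 1 and 2.22 on array 3, but -0.05 on array 2 and -0.25 on array 4. For Nefm it was 3.104, 0.15, 2.85 and -0.23 on arrays 1 to 4. For these 2 genes, arrays 1 and 3 thus showed the ONC channel far above the CTR channel, and arrays 2 and 4 showed channels close to each other. For Nefh it was 3.40, -0.10, 2.97 and -0.42. For Ina it was 0.99, -0.10, 0.54 and -0.71, and for Prph 2.56, -0.02, 1.92 and -1.29. On array 4, Nefh, Ina and Prph were lower in the channel labelled ONC by more than 1 SD of the ratios of all genes, which was 0.35 there. With median scaling, Nefh was only -0.016 on array 4, so its place there depends on the scaling, while Ina was -0.79 and Prph -1.27.

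The ONC channel was the higher one for 5 members on array 1, for 1 on array 2 (Nefm), for 5 on array 3 and for 0 on array 4. On array 1, 0.0245% of all genes had a ratio as far from 0 as that of Nefh, 0.0429% as that of Nefm and 2.05% as that of Ina. On array 4, 0.779% of genes had a ratio as far from 0 as that of Prph, while 40.1% lay as far from 0 as that of Nefm. On array 2, 52.1% to 94.6% of genes lay as far from 0 as the members. The 3 chains and Prph thus had some of the widest ratios on arrays 1 and 3, and all 5 members lay in the middle of the genes on array 2.

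**Figure D3:**
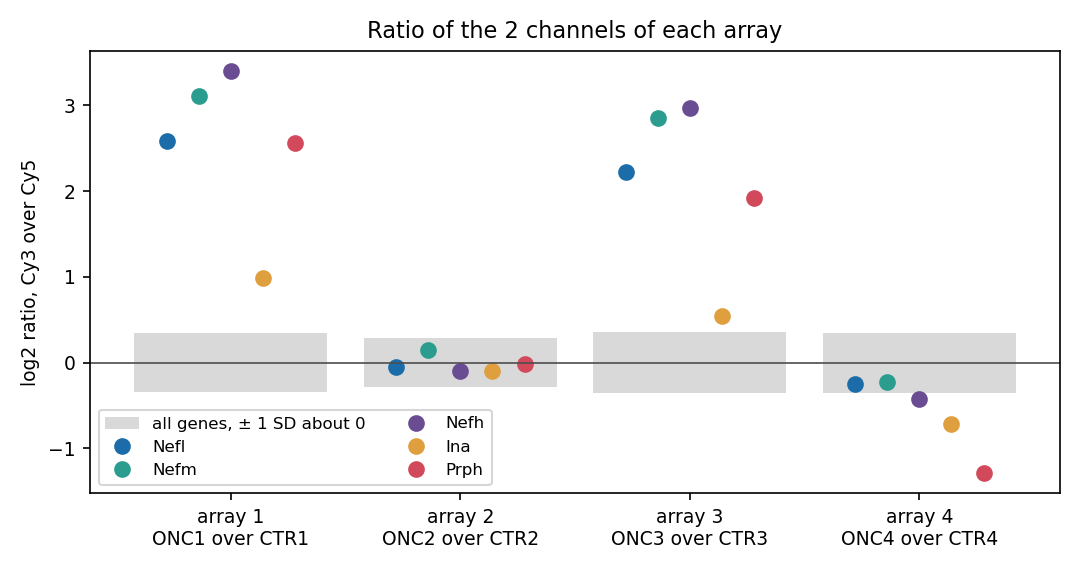
Log2 ratio of the Cy3 over the Cy5 channel (vertical axis) of the 5 genes on each of the 4 arrays, named by the labels of their channels. Grey bands are ± 1 SD of the ratios of all genes, from 0.28 on array 2 to 0.36 on array 3; Nefl, Nefm, Nefh and Prph lie far above the band on arrays 1 and 3, Ina lies nearer to it, and all 5 lie within it on array 2.

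The repeat spots of Nefm show how far 1 spot can differ from another within a channel. In CTR2, the high channel among those labelled CTR, the 9 kept spots ran from 2.38 to 3.15, with a median of 2.80. In ONC4 they ran from -0.69 to -0.10, with a median of -0.34. No spot of CTR2 came near the spots of CTR1, CTR3 or CTR4, whose highest was 0.48 (in CTR3), and no spot of ONC4 came near those of ONC1, ONC2 or ONC3, whose lowest was 2.55 (in ONC3). The SD over the 9 spots was between 0.16 (CTR4) and 0.25 (CTR3). Over 572 probes with 9 or 10 kept spots the median of that SD was between 0.22 and 0.29. In CTR4 and ONC4 the Nefm spots lay closer together than those of most repeated probes, as 501 and 479 of the 572 had a larger SD there.

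The same spot can be followed from channel to channel. In the order of the channels from low to high (ONC4, CTR1, CTR4, CTR3, CTR2, ONC1, ONC3, ONC2), the step from CTR3 to CTR2 was 2.72 with an SD of 0.12 over spots, and 9 of 9 spots showed it. The steps from CTR4 to CTR3 (0.24) and from ONC1 to ONC3 (0.07) were also larger than their SD. The other neighbours in the order, ONC4 and CTR1, CTR1 and CTR4, CTR2 and ONC1, and ONC3 and ONC2, did not differ beyond the SD over spots. Spots of a channel share its RNA and are no replicates of a condition. On array 1, the ratio of ONC1 over CTR1 ran from 2.86 to 3.23 over the spots, and on array 3 that of ONC3 over CTR3 from 2.49 to 3.13. On array 2 it ran from -0.15 to 0.45, with 8 of 9 spots above 0, and on array 4 from -0.37 to -0.14, with 0 of 9 above 0. The other members have a single spot, so neighbours in their orders have no such spread to be set against.

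**Figure D4:**
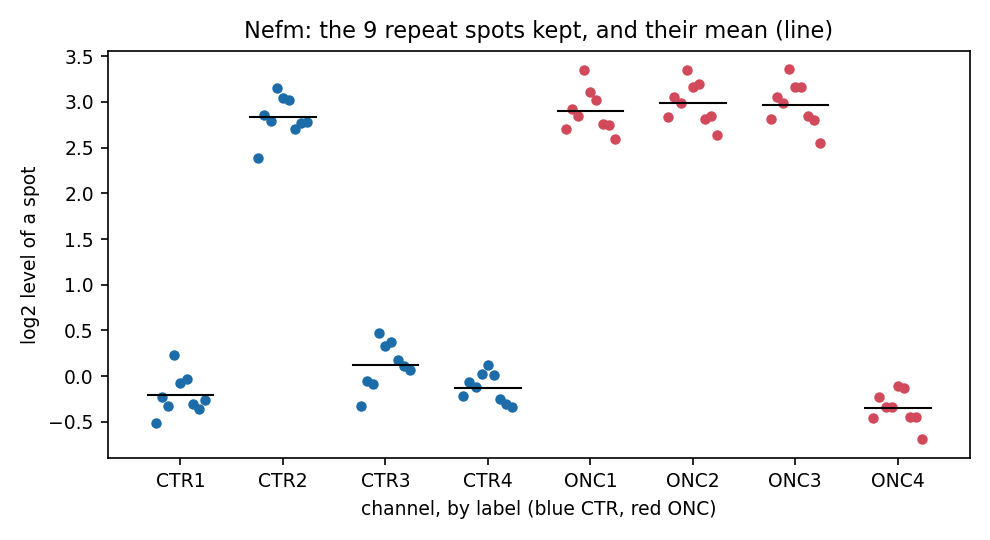
Log2 level (vertical axis) of each of the 9 kept spots of the Nefm probe in the 8 channels by label, CTR in blue and ONC in red, with the mean of the spots as a line. The spots of CTR2 lie between 2.38 and 3.15, and those of ONC4 between -0.69 and -0.10.

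Few genes varied as much over the 8 channels. The SD over the channels was 1.64 for Nefm, in place 12 of 16307 genes, 1.57 for Nefh (place 16), 1.24 for Nefl (place 43), 1.201 for Prph (place 45) and 0.46 for Ina (place 938). The median over all genes was 0.20. The study's own measure of spread within a condition, the relative expression variability (REV, a corrected coefficient of variation in percent), was computed on linear values by its equation. For Nefh it was 243.0% in CTR and 130.1% in ONC, for Nefl 209.9% and 108.2%, for Prph 179.0% and 113.3%, for Nefm 130.7% and 61.5% and for Ina 64.9% and 61.9%. Medians over all genes were 25.1% in CTR and 21.7% in ONC. The correction in REV raises a gene with few spots more than one with many. Nefm, with 9 spots, was therefore raised less than the other members, with 1 spot each, and its REV is not comparable with theirs. The spread within the channels labelled CTR was larger than within those labelled ONC for all 5 members by this measure, in which a single high value on a linear scale weighs more than a single low one. On the log2 scale the order turned, and the SD was larger in ONC than in CTR for all 5: 1.17 and 1.16 for Nefl, 1.65 and 1.46 for Nefm, 1.58 and 1.34 for Nefh, 0.50 and 0.47 for Ina and 1.30 and 1.12 for Prph. Which label holds the larger spread thus depends on the scale.

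Ranked by stability from the least stable (0) to the most stable (100) gene, the members stood in CTR at 0.02 (Nefh), 0.06 (Nefl), 0.10 (Prph), 0.35 (Nefm) and 4.97 (Ina). In ONC they stood at 0.60, 1.12, 0.96, 5.66 and 5.48 in the same order. These ranks and the thresholds below follow REV, so those of Nefm also carry the smaller correction for its repeat spots. Because the threshold of the methods' criterion grows with REV, the members needed large folds to pass it. Nefh had a linear fold of 2.54 against a threshold of 4.90, Nefm 2.40 against 3.04, Nefl 1.97 against 4.34, Prph 1.70 against 3.996 and Ina 1.13 against 2.27. None of the 5 reached its threshold, and by this criterion too the members were not called.

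How alike the members were was measured as the root-mean-square (RMS) difference of their log2 levels over the 8 channels, each gene less its own mean. Nefm and Nefh were nearest, at 0.23, followed by Nefl and Prph at 0.29, Nefl and Nefh at 0.34 and Nefl and Nefm at 0.41. Ina was farthest from each of the others, at 0.72 from Prph, 0.81 from Nefl, 1.11 from Nefh and 1.196 from Nefm. When each gene was first divided by its own SD, these last 4 differences were 0.27, 0.46, 0.48 and 0.51, beside 0.10 to 0.14 between the 3 chains. Prph then lay 0.24 from Nefl, 0.29 from Nefm and 0.26 from Nefh, about as far as it lay from Ina. In shape Prph thus stood between the 3 chains and Ina. Whether Ina's log2 fold change differed from those of the others was tested in 4 comparisons. Each was an exact permutation test, two-sided, with a smallest possible p of 0.0286. Labels moved freely among the 8 channels, so the pairing by array was not used. The difference was 0.95 for Nefl (exact p = 0.0571, 0.114 after adjustment over the 4 comparisons), 1.29 for Nefm (exact p = 0.143, adjusted 0.19), 1.29 for Nefh (exact p = 0.0571, adjusted 0.114) and 0.61 for Prph (exact p = 0.4, adjusted 0.4). None passed, so a difference between Ina and the other members in fold change was not shown. After adjustment over 4 comparisons, a single one at the smallest p could not pass, so the test does not decide this. On all 4 arrays, the ratios of Nefl, Nefm and Nefh lay above Ina's, for Nefh on array 2 only at -0.0991 against -0.0997. That of Prph lay below it on array 4. With processed signals, Nefl (-0.086) and Nefh (-0.152) lay below Ina (-0.002) on array 2, and Nefh (-0.582) below Ina (-0.495) on array 4. These ratios were not tested.

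The genes whose pattern over the 8 channels lay nearest to the mean of Nefl, Nefm and Nefh were named by the same RMS difference, among all measured genes other than the members. The nearest was Sncg, gamma-synuclein, a small protein of RGC bodies and axons, at 0.25, beside a median of 1.43 over all genes. Next came a transcript that the files name only by an Ensembl number, at 0.44, Pou4f2, a transcription factor of RGCs, at 0.47, and Rbpms, an RNA-binding protein of RGCs, at 0.49. Gpx2, a glutathione peroxidase, lay at 0.50, Tmem163, a zinc transporter, at 0.51, and Slc17a6, the vesicular glutamate transporter VGLUT2, at 0.51. Nell2, a secreted protein of neurons, lay at 0.55, and Scn4b and Scn2a, subunits of voltage-gated sodium channels, at 0.59 and 0.63. Of these 10 genes, 5 are in the list of RGC markers.

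Their levels show what the nearness means. Sncg was 2.56 in CTR2, against 0.43 in CTR1, 0.46 in CTR3 and 0.76 in CTR4. It was 3.099 in ONC1, 3.09 in ONC2 and 3.12 in ONC3, but 0.59 in ONC4. Slc17a6 spanned more, from -1.49 in CTR1 and -1.40 in ONC4 to 2.66 in ONC3, with 2.55 in CTR2. Both genes had CTR2 high and ONC4 low, as the members did. Their log2 fold changes were 1.423 for Sncg (limma adjusted p = 0.294) and 1.79 for Slc17a6 (limma adjusted p = 0.434), neither past the threshold.

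Taken singly, the members had partly different neighbours. Nefl was nearest to Sncg (0.20), Tmem163 (0.31), Rbpms, Gpx2 and Scn4b. Nefm was nearest to the unnamed Ensembl transcript (0.34), Slc17a6 (0.38), Sncg, Pou4f2 and Rbpms, and Nefh to Sncg (0.32), Pou4f2 (0.43), the same transcript, Slc17a6 and Gpx2. Prph lay nearest to Tmem163 (0.30), Scn4b (0.32), Sncg, Serpinb1a, a protease inhibitor, and Rbpms. Sncg was thus among the 5 nearest genes of every member but Ina. Among the genes nearest to Ina were Epdr1 (0.12), an ependymin-related secreted protein, RGD1559747 (0.15), Vstm2l (0.16) and Ctxn2, a cortexin (0.17), beside a median of 0.49 over all genes. In Epdr1 the level was 0.96 in CTR1 and 1.12 in ONC4, 2.19 in CTR2, and between 1.47 and 2.17 in the other 5 channels.

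**Figure D5:**
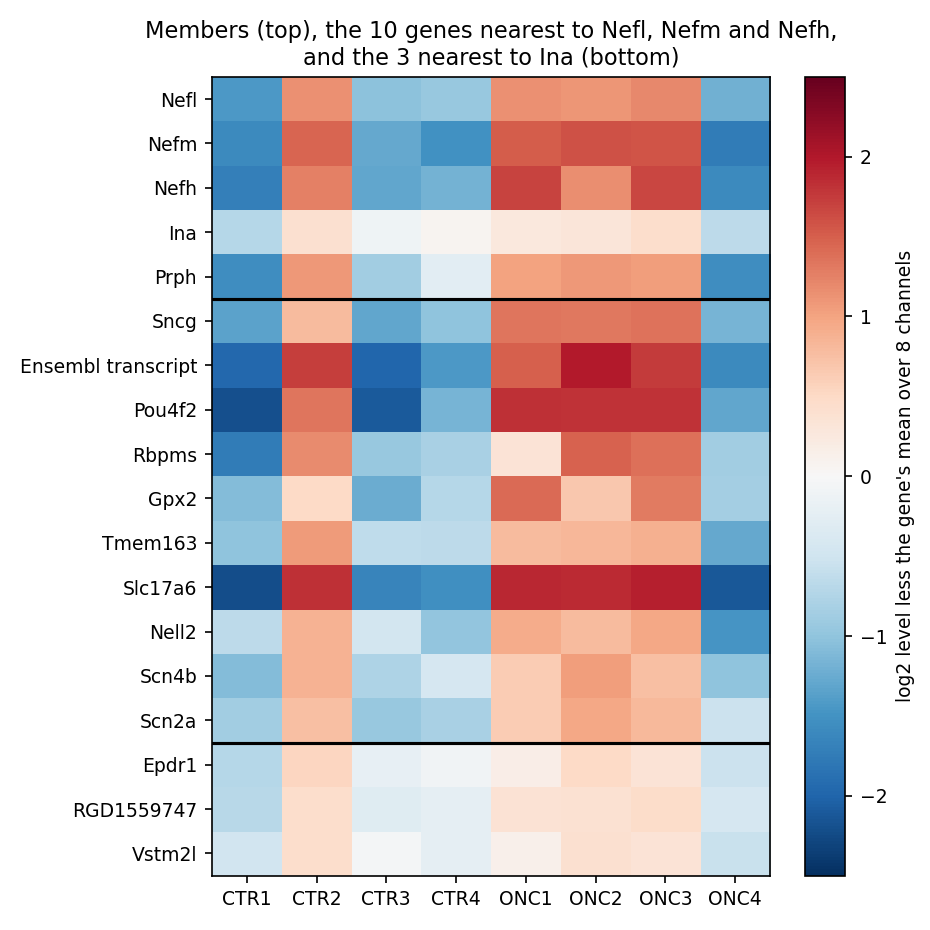
Log2 level less the gene's own mean over the 8 channels (colour), for the 5 members (top), the 10 genes nearest to the mean of Nefl, Nefm and Nefh (middle) and the 3 nearest to Ina (bottom). The columns are the channels by label; in the upper and middle blocks CTR2, ONC1, ONC2 and ONC3 are red and CTR1, CTR3 and ONC4 are blue.

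Of 12 measured markers of RGCs, 7 had all of CTR2, ONC1, ONC2 and ONC3 above all of the other channels, as the 3 chains did, and 5 did not. The share of all genes with this split was not counted, so the count is no result about the markers. The list holds 18 genes, and the 12 that passed the filter were 10 with a higher and 2 with a lower mean in ONC, and the median log2 fold change was 0.63, beside -0.01 over all genes. Their summed linear level was 19.8 in CTR1, 21.1 in CTR3 and 26.9 in CTR4, but 42.7 in CTR2, and it was 50.1 in ONC1, 47.0 in ONC2 and 50.02 in ONC3, but 23.4 in ONC4. The sum was therefore high in the channels where the members were high, and its brightest probe was that of Stmn2, a microtubule regulator that other neurons also express. Isl1, a transcription factor also found in bipolar and amacrine cells, was the 1 gene of the list called, at a log2 fold change of 0.64 (SE 0.08, limma adjusted p = 0.0418). Isl1 was between 0.73 and 0.98 in the CTR channels and between 1.48 and 1.51 in the ONC channels, so that, unlike the members, it did follow the labels, ONC4 and CTR2 included. Its call held without ONC2 (limma adjusted p = 0.0475) and was lost with any of the other 7 channels left out (0.068 without CTR2 to 0.178 without ONC3), and with normexp (0.0557), normexp joined to no filter on dim spots (0.11) or the 4 channels of agreed dye (0.384), while its log2 fold change stayed between 0.56 and 0.68 in all alternatives run. Pou4f2 was -4.04 in CTR1, -3.95 in CTR3 and -3.02 in CTR4, but -0.52 in CTR2, and -0.03, -0.04, -0.05 and -3.14 in ONC1 to ONC4. Rbpms had a log2 fold change of 1.15 (limma adjusted p = 0.405). Tubb3, a beta-tubulin of neurons, was between 1.02 and 1.80 in the CTR channels and between 2.24 and 2.93 in the ONC channels, a log2 fold change of 1.16 (limma adjusted p = 0.0575, 0.0507 with the array as a block). It was not called, and like Isl1 it lay with the labels. Gap43, a protein of growing axons, was highest in CTR4 (2.41) and CTR3 (2.17), where the 3 chains were low. Stmn2 and Chrna6, a subunit of a nicotinic receptor, missed the split by little: Stmn2 was 3.31 in CTR4, above the 3.24 of ONC3, and Chrna6 was -0.31 in CTR1, above the -0.35 of ONC3. Thy1, a surface protein of neurons, was between -1.11 and -0.71 in CTR2 and ONC1 to ONC3 and between -2.47 and -2.09 in the other 4 channels. Opn4, melanopsin, was between 1.72 and 2.46 in CTR2 and ONC1 to ONC3 and between 0.87 and 1.32 in the other 4. The probes of Pou4f3 were not well above background in CTR1, CTR3 and ONC4, and those of Rbpms2 in any channel but CTR2. Isl2 and Nrn1 were not well above background in ONC4, and Pou4f1 and Eomes are not names on the array. The part of RGC content in the members' differences was not tested.

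Other intermediate filament genes, which build the filaments of glia, lens, epithelia and the nuclear lamina, were represented by 17 of 20 genes that passed the filter, 7 higher and 10 lower in ONC. Their median log2 fold change was -0.07 (0.01 with median scaling), and 0 were called, or 2 with the array as a block. Vim, vimentin of Müller glia, was between 2.26 and 2.59 in the CTR channels and between 1.94 and 2.07 in the ONC channels. Its log2 fold change was -0.41 (SE 0.09, limma adjusted p = 0.0799, 0.0409 with the array as a block), and that of Iffo1, a filament-like protein of the nucleus, was -0.41 (adjusted p = 0.329, 0.0419 with the block). Gfap, the filament of astrocytes and reactive Müller glia, was -0.20 in CTR3 and 0.17 in CTR4, and between -1.84 and -1.57 in CTR1, CTR2, ONC1, ONC3 and ONC4. It was lowest in ONC2, at -3.26, and its log2 fold change was -1.15 (limma adjusted p = 0.296). Nes, nestin, had -0.35 (limma adjusted p = 0.633). Vim and Gfap thus had high and low channels that differ from those of the neurofilament chains.

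Kinases and phosphatases that act on neurofilament tails were represented by 17 of 19 genes, 11 higher and 6 lower in ONC. Their median log2 fold change was 0.08, and 0 were called, or 2 with the array as a block. Mapk3, the kinase ERK1, had a log2 fold change of -0.31 (limma adjusted p = 0.181, 0.0482 with the block). Prkaca, the catalytic subunit of protein kinase A, lay between 0.51 and 0.73 in the CTR channels and between 0.79 and 1.35 in the ONC channels, a log2 fold change of 0.60 (limma adjusted p = 0.0731, 0.0344 with the block). Cdk5, a main kinase of the heavy chain tail, differed by -0.01 (limma adjusted p = 0.964), its activator Cdk5r2 by 0.08 and Gsk3a by 0.06. The widths of these genes over the channels were small, with a median SD of 0.17, close to the 0.20 of all genes.

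Motors that carry neurofilaments and other cargo along axons were represented by 14 of 18 genes, 8 higher and 6 lower in ONC. Their median log2 fold change was 0.04, and 0 were called. With the array as a block 1 was called, Klc1, a kinesin light chain, at -0.47 (limma adjusted p = 0.0925, 0.0414 with the block). Kif5b, a kinesin heavy chain, had -0.10 and Kif1a, a motor of synaptic vesicle precursors, -0.16. Linkers and the membrane skeleton, to which filaments attach, were represented by 12 of 12 genes, 10 higher and 2 lower, with a median of 0.20 and 0 called with or without the block. Among them Dst, dystonin, had 0.19, Plec, plectin, -0.18 and Macf1, a linker of actin and microtubules, 0.31. Their summed linear level was 74.8 in ONC1 and 76.5 in ONC3, and between 56.9 and 67.1 in the other channels, CTR2 (64.0) and ONC2 (67.1) included.

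Genes for turnover, chaperones and binding of neurofilament mRNA were represented by 13 of 14, 7 higher and 6 lower in ONC. Their median log2 fold change was 0.03, and 0 were called, or 2 with the array as a block. Hspb1, a small heat shock protein, had -0.74 (limma adjusted p = 0.261, 0.029 with the block). Elavl4, a neuronal RNA-binding protein, was between -0.75 and -0.35 in the CTR channels and between -0.24 and 0.20 in the ONC channels, a log2 fold change of 0.61 (limma adjusted p = 0.0667, 0.0417 with the block). Trim2, a ubiquitin ligase known to bind the light chain, had -0.13, Stub1, a ligase that works with chaperones, -0.02, and Capn1, a calpain, which is a protease that cleaves neurofilaments, 0.99 (limma adjusted p = 0.157). Capn1 was highest in ONC1, ONC2, ONC3 and CTR2, at -0.20, -0.34, -0.16 and -0.79, and between -2.02 and -1.33 in the other 4 channels. Over the 5 lists of genes that work on or beside neurofilaments, 73 of 83 genes passed the filter, of which 0 were called, and 7 with the array as a block, 2 higher and 5 lower in ONC. These 7 are 9.59% of the 73, near the 7.69% of all genes called with the block, so the block calls in these lists are no result about the lists.

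Nefl and Nefm are next to each other in RefSeq's gene table for the assembly GRCr8, as are Prph and Tuba1a. Up to 2 protein-coding neighbours on each side of the members came to 16 other genes, of which 13 were measured, 4 higher and 9 lower in ONC, and their median log2 fold change was -0.13. Tuba1a, an alpha-tubulin of neurons, was the 1 neighbour called. It was between 6.82 and 7.04 in the CTR channels and between 6.18 and 6.44 in the ONC channels, a log2 fold change of -0.61 (limma adjusted p = 0.0438), and so followed the labels where Prph beside it did not. The call was lost with any of the 8 channels left out (limma adjusted p from 0.0663 without ONC2 to 0.178 without ONC3), with normexp (0.0584), with processed signals (0.0763), with normexp joined to no filter on dim spots (0.114) and with the 4 channels of agreed dye (0.384), at log2 fold changes between -0.65 and -0.52. With median scaling it was called at a larger size, -1.01 (limma adjusted p = 0.00839). Tuba1b, next on the same side, had -0.26 (limma adjusted p = 0.477). Around Nefl and Nefm, Gnrh1 had 0.34 and Adam7 -0.33, and both differed from the members by more than Nefl and Nefm differed from each other, at RMS differences of 0.97 and 1.61 beside 0.41. The neighbours of Nefh (Nipsnap1, Thoc5, Ap1b1 and Rasl10a) lay between 1.36 and 1.64 from it, beside a median of 1.51 over all genes. Those of Ina lay at 0.33 (Nt5c2), 0.40 (Pcgf6), 0.48 (Taf5) and 0.82 (Cnnm2), beside a median of 0.49. Both sets thus lay about as far from their member as genes in general.

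Of the 5 members, 2 have a promoter in the RefSeq table, Ina and Prph, while Nefl, Nefm and Nefh have none there. The 250 bases before the start site are shown because Prph had a wide range over the channels, as the 3 chains did. That of Ina was narrower, though still above the median over all genes. On GRCr8 they lie at chr1:255837879-255838128 for Ina and at chr7:132097039-132097288 for Prph, both on the plus strand. Capitals mark matches, on either strand, to the TATA box (TATAAA), the CCAAT box (its name gives its letters), the GC box core (GGGCGG) and an E-box (CAGCTG).
Ina: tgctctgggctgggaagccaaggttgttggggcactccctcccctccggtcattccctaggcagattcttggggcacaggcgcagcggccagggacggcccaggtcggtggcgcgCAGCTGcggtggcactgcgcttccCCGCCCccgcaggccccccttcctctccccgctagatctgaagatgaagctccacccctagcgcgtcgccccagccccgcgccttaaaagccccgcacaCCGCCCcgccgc
Prph: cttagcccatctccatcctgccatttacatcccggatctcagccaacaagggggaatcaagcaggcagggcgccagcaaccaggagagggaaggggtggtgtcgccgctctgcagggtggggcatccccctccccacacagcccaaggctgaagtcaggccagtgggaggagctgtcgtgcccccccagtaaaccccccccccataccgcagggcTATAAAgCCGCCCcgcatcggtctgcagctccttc
The Ina stretch holds GGGCGG at 111 and at 12 bases before the start, both on the other strand, and CAGCTG at 135 bases before it. The Prph stretch holds TATAAA at 35 bases and GGGCGG, on the other strand, at 28 bases before the start. CCAAT is in neither stretch, nor is TATAAA in that of Ina or CAGCTG in that of Prph. Among 33469 promoters of the same length, 12.9% hold TATAAA, 34.0% CCAAT, 30.5% GGGCGG and 12% CAGCTG. A match is a run of letters and was not tested as a site.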

How the data were processed

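RNA from 4 CTR and 4 ONC retinas was measured on 4 Agilent rat arrays with a retina in each channel. The authors deposited the spot intensity values of the scanner software: mean foreground, median local background and a processed signal that, per the file headers, was background-subtracted, detrended and dye-normalised. The file headers name Feature Extraction 12.0.3.1, the submitters' processing notes 11.1.19.1. Groups were taken from the labels.

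Of 44254 spots per array, 1377 controls, spots with a flag for non-uniform feature, non-uniform background or feature population, and spots under 2 times the background in any channel were left out, which kept 27371 spots, 18599 probes and 16307 genes. These 3 flags were the set whose count of genes matched an earlier processing of these files. The study gives another count of genes, and its methods do not name the flags behind it. Leaving out the background population flag as well keeps 14644 genes, an alternative chosen after seeing the data. Background was subtracted, arrays were normalised by loess and channels centred on their medians. Log2 values were averaged over the spots of each probe, then over the probes that carry a gene name in the files.

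ONC and CTR were compared over all genes with limma 3.58.1 in R 4.3.3 (two-sided, Benjamini-Hochberg adjustment, calls at an adjusted p under 0.05), from which all adjusted p not named otherwise come. The fit was tested on simulated data, with no values from that test given here. REV, stability and the methods' t-test were computed with Python 3.11.15, scipy 1.17.1, numpy 2.4.6 and pandas 2.3.3, and matplotlib 3.10.9 drew the figures. The p values measure the spread between these retinas only. By the labels, channels of the same number share an array, which pairs them; the correlations of their deviations from the group means were 0.15, 0.55, 0.40 and 0.49, and the array served as a block in an alternative. Other alternatives were the processed signals, median scaling, Aquantile, normexp with an offset of 50, normexp together with no filter on dim spots (not run without normexp), a filter at 3 times the background, the brightest probe, the 4 channels given the same dye by labels and methods, and each channel left out.

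Named genes were the 5 members, the 5 nearest of each and the 10 nearest to the 3 chains, of each list the first 3 that passed the filter and those called, and up to 2 neighbours on each side; some of these are not reported here. The lists are 5 of genes that act on or beside neurofilaments and 16 of cell type markers (RGC, horizontal, amacrine, bipolar, rod, cone, Müller glia, astrocyte, oligodendrocyte, Schwann cell, microglia, pigment epithelium, lens, vascular, blood and eye muscle). The members and lists were chosen with earlier results of these data known. Genes named outside that rule (a list's brightest probe, markers not well above background, and RGC markers with or without the members' pattern) were chosen after their values were seen.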

Additional observations from a re-analysis of the deposited data

Results flagged for a closer look

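In 6 sets of 4 channels of a label, 1 channel lay so far from the others that its gap to the nearest of them, divided by the range of the set, was above Dixon's critical value at the 95% level. In the ONC channels, ONC4 was the channel apart in all 5 members, with a share of 0.956 for Nefl, 0.973 for Nefm, 0.836 for Nefh, 0.843 for Ina and 0.975 for Prph. In the CTR channels, CTR2 was apart for Nefm, with 0.893, and came near for Nefh (0.822) and Nefl (0.809), while the channel farthest from the others was CTR1 for Ina (0.551) and CTR2 for Prph (0.512). Chance marks about 1 in 20 sets, and over all 16307 genes 6.01% were so marked in CTR and 9.81% in ONC. The levels of the members move together across channels, so the 6 are not independent of each other. ONC4 was also the channel with the lowest median foreground, 218.1, and the lowest share of spots well above background, 66.8%, and the part of either in these gaps was not tested.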

How the results depend on the processing

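In 90 alternatives of the members' log2 fold changes, 0 had an adjusted p under 0.05 (lowest 0.128, Nefh without ONC4), and 1 changed sign, Ina at -0.031 without CTR1. With 1 channel left out in turn, the log2 fold change was 0.84 to 1.72 for Nefl, 1.18 to 2.30 for Nefm, 1.14 to 2.24 for Nefh, -0.03 to 0.42 for Ina and 0.41 to 1.44 for Prph. Over the other alternatives it was 1.08 to 1.17 for Nefl, 1.45 to 1.58 for Nefm, 1.37 to 1.65 for Nefh, 0.12 to 0.30 for Ina and 0.62 to 0.80 for Prph. Of 60 array ratios recomputed, 60 moved by less than 1 SD of the member's own ratios over the arrays and 0 changed sign; 1, Nefh on array 4 with median scaling (-0.016), moved by more than the SD of all genes there. The order of the channels was the same in 24 of 40 recomputations. In the other 16 at most 3 channels took another place, or up to 6 (Nefl) with normexp joined to no filter on dim spots, with CTR1, CTR3, CTR4 and ONC4 lowest in 40 of 40.

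The count of 81 called genes was 21 with processed signals, 3194 with median scaling, 408 with Aquantile, 249 with foreground at least 3 times background, and 0 with normexp, with normexp joined to no filter on dim spots and with the 4 channels whose dye both sources give alike (2768, 2338 and 1961 genes at an unadjusted p under 0.05 in limma). With each channel left out it was 0 to 38, the highest without ONC2. The methods' t-test called 2682 genes at its threshold, 0 after adjustment and 510 with the fold threshold. With the array as a paired block it was 1254, and the block changed no call of a member. The cause of these moves was not tested. Over 4 other scalings or background corrections, 15 of 21 list medians kept their sign. No alternative moved the median of all genes by 0.1 or more. Signal over background limits Nefh most, at 4.68 in its dimmest channel.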

Other observations

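Other cell types of the retina were followed through their marker lists, as values beside those of the members. Rod, bipolar, amacrine, horizontal and cone markers had median log2 fold changes of 0.04 (8 of 10 genes measured), 0.18 (9 of 9), -0.02 (9 of 10), -0.08 (5 of 6) and -0.28 (7 of 8), and 0 were called by limma. With median scaling the rod and amacrine medians changed sign, to -0.24 and 0.10. With the array as a block, the cone genes Opn1mw at -0.37 (adjusted p = 0.0358) and Pde6h at -0.39 (adjusted p = 0.0327) and the glycine transporter Slc6a9 of amacrine cells at -0.41 (adjusted p = 0.0334) were lower in ONC. With the block 7.69% of all genes were called, so single calls in these lists say nothing particular about a cell type. Summed linear levels were 138.1 to 170.3 for bipolar, 72.3 to 108.4 for amacrine, 24.7 to 30.1 for horizontal and 57.9 to 77.5 for cone markers, with Otx2, Calb2, Sept4 and Pde6h as the brightest probes. Among the genes of these lists, Nrl had 0.16 and Gnat1 -0.23, Vsx1 had 0.36 and Grm6 0.27, Gad1 had -0.18 and Gad2 0.31, Lhx1 had -0.16, Onecut1 -0.10 and Onecut2 0.17, and Opn1sw had -0.36 and Arr3 -0.04.

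Among glia and immune cells, Müller glia markers had a median of -0.19 (9 of 10 genes), astrocyte markers -0.31 (4 of 5), oligodendrocyte markers 0.06 (6 of 9), Schwann cell markers -0.26 (2 of 6) and microglia markers -0.38 (10 of 10), with 0 called. The oligodendrocyte median was -0.05 with processed signals and 0.59 with median scaling, and the Schwann cell median was -0.01 with median scaling. With the block, Slc1a3, the glutamate transporter of Müller glia, was lower at -0.56 (adjusted p = 0.0336), Clu, clusterin, at -0.73 (adjusted p = 0.0449) and Cnp, a myelin enzyme, at -0.75 (adjusted p = 0.029). The oligodendrocyte markers Mog and Olig2, and Prx and Mal of Schwann cells, were not well above background in any channel. Summed levels were 237.3 to 354.3 for Müller glia, 1.98 to 3.84 for astrocytes, 0.93 to 1.28 for oligodendrocytes and 1.416 to 3.59 for Schwann cells, with Dkk3, Aqp4, Mag and Pmp22 as the brightest probes. The microglia sum was 19.4 in CTR3 and 19.6 in CTR4, 9.91 in CTR1 and 9.70 in CTR2, and 7.56, 11.9, 9.35 and 11.4 in ONC1 to ONC4, with C1qb as the brightest probe. CTR3 and CTR4 thus held the most microglial signal, and both were low in Nefl, Nefm and Nefh. CTR1 and ONC4 were low in these chains too, but their microglia sums lay within those of the high channels, 7.56 to 11.9. The part of microglial RNA in the members' levels was not tested. Glul had 0.58, Rlbp1 0.02, S100b -0.34, Aldh1l1 -0.27, Mbp 0.04, Sox10 0.28, Aif1 -0.59, Cx3cr1 0.39 and Csf1r -0.21.

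Lens markers, from a tissue that lies against the retina, had a median of -0.40 (10 of 10 genes, 0 called) and a summed level of 224.6 in CTR2 and 132.5 in ONC4, the channels that stood apart in the members. In the other channels the sum was between 63.3 in ONC1 and 105.4 in CTR3, and the brightest probe was that of Crygs. The part of lens RNA in the members' levels was not tested. Cryaa had -0.95, Cryba1 -0.35 and Cryba4 -0.39. Pigment epithelium, vascular, blood and eye muscle markers had medians of 0.23 (4 of 8 genes), -0.05 (8 of 8), 0.15 (2 of 4) and -0.12 (3 of 6), with 0 called with or without the block. With median scaling the vascular and eye muscle medians were 0.11 and 0.43, and with processed signals the vascular median was 0.03. Their summed levels were 22.5 to 66.7, 4.95 to 6.67, 1.24 to 2.64 and 0.51 to 0.73, and Ttr, Vwf, Hbb and Mb had the brightest probes. Rpe65 had 0.79, Lrat 0.27, Cldn5 -0.06, Pecam1 0.18, Cdh5 0.13, Alas2 0.08, Acta1 -0.12 and Ckm -0.15, none called. Myh2 and Myh4 of eye muscle were not well above background in any channel.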
